A study of Arabidopsis thaliana with 4 samples.

Results

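The 7 genes described here encode the Nudix hydrolases that form a clade around *NUDT4* and *NUDT21* in *Arabidopsis thaliana*. They were found by gene identifier among 23425 genes with reads: *NUDT4* (AT1G18300), *NUDT21* (AT1G73540), *NUDT17* (AT2G01670), *NUDT18* (AT1G14860), *NUDT16* (AT3G12600), *NUDT13* (AT3G26690) and *NUDT12* (AT1G12880). All 7 had reads in every library. The clade was chosen by the levels of *NUDT4* and *NUDT21* in these same libraries, with the comparisons below already known. Its values are therefore given as a description, without a test of the members.

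Nudix hydrolases cleave the pyrophosphate bond within a nucleoside diphosphate that is linked to another group, and some act on related diphosphates. The proteins of this clade are relatives of the animal and yeast diphosphoinositol polyphosphate phosphohydrolases, which remove the outer phosphate of inositol pyrophosphates. In plants, the kinases that make inositol pyrophosphates include ITPK1, VIH1 and VIH2. Inositol pyrophosphates bind SPX proteins, which then hold back PHR1, the main transcription factor of the phosphate starvation response. Within the clade, *NUDT4*, *NUDT21*, *NUDT17* and *NUDT18* form 1 subgroup, and *NUDT12*, *NUDT13* and *NUDT16* form the other.

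Roots of 8-day-old seedlings were sequenced in 4 libraries, 1 for each of *arf7*-NAA, *arf7*-Mock, WT-NAA and WT-Mock. The *arf7* seedlings carry a T-DNA insertion in *ARF7*, which encodes an auxin-activated transcription factor, in the Col-0 background, and WT is Col-0 itself. NAA is naphthalene acetic acid, a synthetic auxin, given at 10 μM for 4 hours, and Mock seedlings received none. Dose and time come from the published methods and not from the sample labels, and the deposited comparison tables mark the NAA libraries with the tag N50, whose meaning is not given in the sources used here, so the dose is uncertain. Growth was on 1/2 MS in the dark per the labels, whereas the methods give a photoperiod. The libraries were compared to find auxin-induced genes that depend on ARF7. Since each condition has a single library, none of the ratios could be checked against replicates, and the intervals below cover counting error only.

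The libraries held 7.03 M reads in *arf7*-NAA, 7.23 M in *arf7*-Mock, 7.42 M in WT-NAA and 7.57 M in WT-Mock, with M for 1000000. *ARF7* itself had 3 reads in *arf7*-NAA, 8 in *arf7*-Mock, 12 in WT-NAA and 6 in WT-Mock, too few to check the genotype labels. Only reads unique to a transcript model were counted, so these counts may be partial and do not give its full level. All 10 root markers had reads in every library, and their sum lay between 1666 and 2279 RPM (reads per 1000000 reads of the library). The water channel gene *PIP2;2* was the most abundant and held 8499 of the 13480 root marker reads in *arf7*-NAA. *NRT2.1* had 8 reads or fewer and *WOX5* 17 or fewer in each library. The leaf markers, of which 9 of 10 had reads, summed to 168 RPM in *arf7*-NAA, 50.2 in *arf7*-Mock, 102 in WT-NAA and 125 in WT-Mock. Light-harvesting genes led them, *LHCB1.3* in *arf7*-NAA and *LHCB4.1* in *arf7*-Mock, WT-NAA and WT-Mock. The seed markers, of which 9 of 12 had reads, led by the late embryogenesis gene AT3G15670, summed to 44.1 RPM in *arf7*-NAA and to between 0.539 and 3.18 in the other 3 libraries, and the storage protein genes *CRA1*, *CRB* and *CRC* had no reads. The part of these tissue markers in the values of the Nudix genes was not tested. In bulk root RNA, fewer cells of a type and less RNA per cell cannot be told apart.

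The proteins show which of the genes are near copies. Translated from the RefSeq annotation of TAIR10.1, they are between 176 and 207 residues long. NUDT4 and NUDT21 were identical at 149 of 191 aligned residues. NUDT17 and NUDT18 were identical at 81.4%, and NUDT12 and NUDT13 at 78.4%. The other 18 of the 21 pairs lay between 45.5% and 55.4%. *NUDT4* (chr1:6299669-6301139, plus strand) and *NUDT21* (chr1:27645552-27646743, minus strand) have 2 exons each, while the other 5 genes have 4 or 5. The transcripts of *NUDT4* and *NUDT21* share no exact stretch longer than 34 bases, those of *NUDT17* and *NUDT18* none longer than 41 and those of *NUDT12* and *NUDT13* none longer than 38, so a read that matches both genes of a pair exactly can only lie within such a stretch.

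The 250 bases before the annotated start are shown for *NUDT4* and *NUDT21*, which were past the thresholds set out below, and for *NUDT17* and *NUDT18*, the related pair that was not. The sequences come from the RefSeq copy of TAIR10.1 and run 5′ to 3′ on the strand of the gene. They lie at chr1:6299419-6299668 (plus) for *NUDT4*, chr1:27646744-27646993 (minus) for *NUDT21*, chr2:298216-298465 (minus) for *NUDT17* and chr1:5124420-5124669 (plus) for *NUDT18*, and no annotated gene overlaps them. Capitals mark every match, on either strand, to the motifs named in the next paragraph.
NUDT4: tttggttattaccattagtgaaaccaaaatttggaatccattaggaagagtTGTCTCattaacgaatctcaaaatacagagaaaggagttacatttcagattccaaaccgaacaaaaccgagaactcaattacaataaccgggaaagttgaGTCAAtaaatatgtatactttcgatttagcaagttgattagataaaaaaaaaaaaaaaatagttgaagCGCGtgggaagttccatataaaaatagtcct
NUDT21: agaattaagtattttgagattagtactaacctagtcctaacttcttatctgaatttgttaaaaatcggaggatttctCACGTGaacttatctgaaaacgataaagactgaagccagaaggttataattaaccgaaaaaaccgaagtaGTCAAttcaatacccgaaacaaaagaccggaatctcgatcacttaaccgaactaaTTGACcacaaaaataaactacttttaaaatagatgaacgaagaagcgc
NUDT17: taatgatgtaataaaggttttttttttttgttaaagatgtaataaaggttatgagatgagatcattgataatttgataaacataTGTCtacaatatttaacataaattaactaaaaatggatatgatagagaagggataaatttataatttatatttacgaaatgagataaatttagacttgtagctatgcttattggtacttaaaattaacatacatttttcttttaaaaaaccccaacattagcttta
NUDT18: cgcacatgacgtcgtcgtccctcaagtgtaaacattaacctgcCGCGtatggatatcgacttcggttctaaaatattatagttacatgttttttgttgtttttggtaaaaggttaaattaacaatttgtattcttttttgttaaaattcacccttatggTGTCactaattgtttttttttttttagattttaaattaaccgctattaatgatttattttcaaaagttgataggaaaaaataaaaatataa

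The windows searched ran from 250 bases before to 50 bases after the start, and the same windows of 27443 protein-coding genes gave the background. TGTC, the core of the site bound by auxin response factors, was present in 6 of the 7 genes and in 81.5% of all promoters. The longer auxin response element TGTCTC, which contains TGTC, was found in *NUDT4* alone among the 7 and in 14.2% of all promoters. *NUDT21* was the gene without a TGTC match. TTGAC, the core of the W-box bound by WRKY factors, was present in *NUDT4*, *NUDT21* and *NUDT12*, with 2 matches in *NUDT21*, and in 50.5% of all promoters. CGCG, the core of the site of calmodulin-binding CAMTA factors, was present in *NUDT4*, *NUDT18* and *NUDT21* and in 3555 of all 27443 promoters. In *NUDT21* this match spans the start site and is therefore not in the stretch shown. The longer form CGCGTT occurred in none of the 7 and in 3.40% of all promoters. The G-box core CACGTG was present in *NUDT21* and *NUDT16* and in 7.68% of all promoters. The PHR1 binding site GNATATNC was found in none of the 7 windows and in 6.25% of all promoters. A match or its absence describes these letters in this window only.

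*NUDT4* and *NUDT21* were highest in WT-NAA. *NUDT4* was lowest in *arf7*-NAA, and *NUDT21* was low in both *arf7*-NAA and WT-Mock. The transcript level of both in RPKM (reads scaled to transcript length and to the library total) was more than 2-fold higher in WT-NAA than in WT-Mock, and in *arf7* the NAA library lay more than 2-fold below the Mock library. *NUDT17* and *NUDT18* lay slightly lower with NAA in both genotypes. The levels of *NUDT16* and *NUDT13* had overlapping intervals across the 4 libraries, and *NUDT12* had 20 reads or fewer in each.

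*NUDT4* had 272 reads in *arf7*-NAA, 626 in *arf7*-Mock, 893 in WT-NAA and 388 in WT-Mock. Its level was 36.3 RPKM in *arf7*-NAA (95% Poisson interval 32.2 to 40.9), 81.3 in *arf7*-Mock (75.1 to 87.9), 113 in WT-NAA (106 to 121) and 48.1 in WT-Mock (43.5 to 53.2). The 4 intervals did not overlap, so that *arf7*-NAA was the lowest library and WT-NAA the highest. *NUDT21*, its closest relative, had 258 reads in *arf7*-NAA, 589 in *arf7*-Mock, 930 in WT-NAA and 299 in WT-Mock. Its level was 38.8 RPKM in *arf7*-NAA (34.2 to 43.9), 86.1 in *arf7*-Mock (79.3 to 93.4), 133 in WT-NAA (124 to 141) and 41.7 in WT-Mock (37.1 to 46.8). Here the intervals of *arf7*-NAA and WT-Mock overlapped, *arf7*-Mock lay above both and WT-NAA was the highest. By RPKM *NUDT21* ranked 991st among all genes in WT-NAA and 3549th in WT-Mock.

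*NUDT17* was the most abundant member in every library but WT-NAA. It had 644 reads in *arf7*-NAA, 837 in *arf7*-Mock, 681 in WT-NAA and 818 in WT-Mock. Its level was 75.7 RPKM in *arf7*-NAA, 95.6 in *arf7*-Mock, 75.8 in WT-NAA and 89.2 in WT-Mock. Both NAA libraries thus lay below both Mock libraries. *NUDT18* had 389 reads in *arf7*-NAA, 486 in *arf7*-Mock, 391 in WT-NAA and 530 in WT-Mock. Its level was 49.1 RPKM in *arf7*-NAA, 59.6 in *arf7*-Mock, 46.7 in WT-NAA and 62.1 in WT-Mock, in the same arrangement as *NUDT17*.

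**Figure D1:**
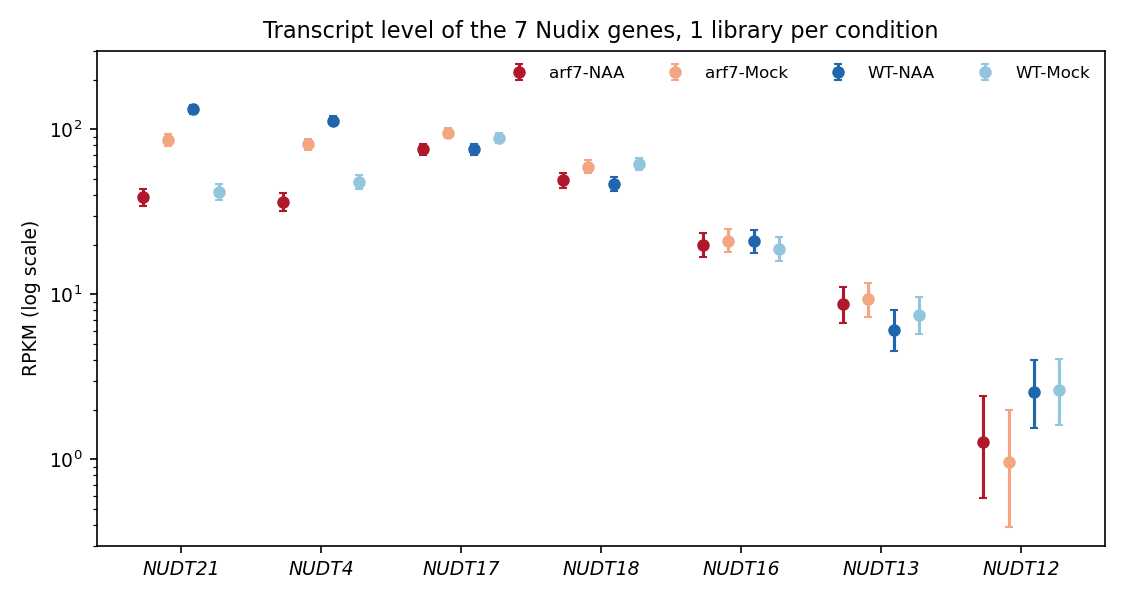
Transcript level (RPKM, log axis) of the 7 Nudix genes in the *arf7*-NAA, *arf7*-Mock, WT-NAA and WT-Mock libraries, 1 library per condition, with 95% Poisson intervals that cover counting error. *NUDT21* and *NUDT4* spread from 38.8 and 36.3 RPKM in *arf7*-NAA to 133 and 113 RPKM in WT-NAA, whereas the points of *NUDT16* lie between 18.9 and 21.2 RPKM.

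The subgroup of *NUDT12*, *NUDT13* and *NUDT16* was less abundant. *NUDT16* had 147 reads in *arf7*-NAA, 160 in *arf7*-Mock, 162 in WT-NAA and 149 in WT-Mock, and its level lay between 18.9 and 21.2 RPKM with overlapping intervals. Its reads covered between 32.3% and 34.5% of the transcript. The annotation gives it 2 transcripts and only reads unique to a transcript model were counted, so its RPKM may lie below the full level of the gene. *NUDT13*, which encodes a mitochondrial hydrolase of long-chain diadenosine polyphosphates, had 66 reads in *arf7*-NAA, 73 in *arf7*-Mock, 49 in WT-NAA and 61 in WT-Mock. These were the sum over 2 transcript models, each covered over between 7.59% and 14.4% of its length, and gave 8.72, 9.37, 6.13 and 7.48 RPKM in the same order of libraries. Here too reads shared by both models were not counted, so these values may lie below the full level. The end of *NUDT13* overlaps the gene AT3G26680 on the other strand by 30 bases, and that gene had 7 reads or fewer in each library. *NUDT12*, the near copy of *NUDT13*, had 9 reads in *arf7*-NAA, 7 in *arf7*-Mock, 19 in WT-NAA and 20 in WT-Mock. Its level was 1.28 RPKM in *arf7*-NAA (0.585 to 2.43), 0.966 in *arf7*-Mock (0.388 to 1.99), 2.56 in WT-NAA (1.54 to 3.99) and 2.64 in WT-Mock (1.61 to 4.07), and all 4 intervals overlapped.

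The order of the members by RPKM differed between libraries. In WT-NAA it ran *NUDT21*, *NUDT4*, *NUDT17*, *NUDT18*, *NUDT16*, *NUDT13*, *NUDT12*, and no neighbouring intervals overlapped. In *arf7*-NAA *NUDT17* and *NUDT18* came first, followed by *NUDT21* and *NUDT4*, which did not differ beyond their intervals. In *arf7*-Mock *NUDT17* and *NUDT21* overlapped, as did *NUDT21* and *NUDT4*, and *NUDT18* lay below them. In WT-Mock *NUDT17* and *NUDT18* again came first, followed by *NUDT4* and *NUDT21*, whose intervals overlapped. *NUDT16*, *NUDT13* and *NUDT12* closed the order in all 4 libraries, with the limit that the RPKM of *NUDT16* and *NUDT13* comes from reads unique to a model.

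**Figure D2:**
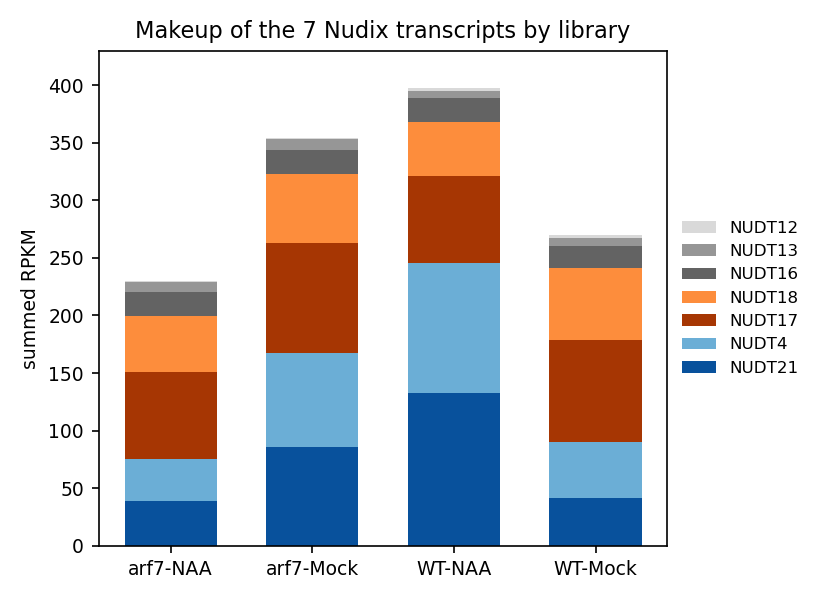
Summed RPKM of the 7 Nudix genes in each library, with the segments showing each gene's RPKM and bars starting at 0. The bars reach 230.0 in *arf7*-NAA, 354 in *arf7*-Mock, 398 in WT-NAA and 270.1 in WT-Mock, and the segments of *NUDT21* and *NUDT4* together measure 75.2 in *arf7*-NAA and 246 in WT-NAA.

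Summed over the clade, the level was 230.0 RPKM in *arf7*-NAA, 354 in *arf7*-Mock, 398 in WT-NAA and 270.1 in WT-Mock. *NUDT4* and *NUDT21* together made up 32.7% of the sum in *arf7*-NAA, 47.3% in *arf7*-Mock, 61.7% in WT-NAA and 33.3% in WT-Mock. *NUDT17* and *NUDT18* made up 54.3% in *arf7*-NAA, 43.8% in *arf7*-Mock, 30.8% in WT-NAA and 56.0% in WT-Mock. The pair with the larger share therefore differed between the libraries. As a share of the clade's reads, *NUDT4* and *NUDT21* took 29.7% in *arf7*-NAA (95% Clopper-Pearson interval 27.6 to 31.9), 43.7% in *arf7*-Mock (41.9 to 45.6), 58.3% in WT-NAA (56.6 to 60.1) and 30.3% in WT-Mock (28.4 to 32.3). The ratio of *NUDT21* to *NUDT4* RPKM was 1.07 in *arf7*-NAA, 1.06 in *arf7*-Mock, 1.17 in WT-NAA and 0.868 in WT-Mock.

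For the comparisons, RPM values were set against each other as a log2 ratio with an exact Clopper-Pearson 95% interval. A gene was called past the thresholds with P under 0.0001 in an exact two-sided binomial test of the reads of the 2 libraries, provided that the log2 ratio was 1 or more, or -1 or less. This test compares libraries and not conditions. The calls over all genes are given as the background. Each library enters 2 of the 4 comparisons, which are therefore not independent.

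In *arf7*-NAA VS *arf7*-Mock, *NUDT4* and *NUDT21* were past the thresholds and lower with NAA, 2 of 7 members. Of 19389 genes, 0.903% were called, 0.454% higher and 0.449% lower. Since these values chose the clade, the count is not read against that background. The log2 ratio was -1.16 for *NUDT4* (interval -1.37 to -0.95), a level 2.24-fold lower in *arf7*-NAA. For *NUDT21* it was -1.15 (-1.37 to -0.94), or 2.22-fold lower. *NUDT17* had a log2 ratio of -0.34 (-0.49 to -0.19) and *NUDT18* one of -0.28 (-0.48 to -0.08), both short of the thresholds with intervals below 0. *NUDT16* (-0.08), *NUDT13* (-0.10) and *NUDT12* (0.40) had intervals that included 0. The median was -0.28 over the 7 genes and -0.02 over all genes.

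In WT-NAA VS WT-Mock, the same 2 members were past the thresholds and higher with NAA. Of 19378 genes, 1.26% were called, 0.485% higher and 0.774% lower. The log2 ratio of *NUDT21* was 1.67 (1.48 to 1.86), a level 3.18-fold higher in WT-NAA. That of *NUDT4* was 1.23 (1.06 to 1.41), or 2.35-fold higher. The other 5 members stayed within 0.41 of 0. *NUDT17* had a log2 ratio of -0.23 (-0.38 to -0.09) and *NUDT18* one of -0.41 (-0.60 to -0.22), again with intervals below 0. *NUDT16* (0.15), *NUDT13* (-0.29) and *NUDT12* (-0.04) had intervals on both sides of 0. The median was -0.04 over the 7 genes and -0.02 over all genes.

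**Figure D3:**
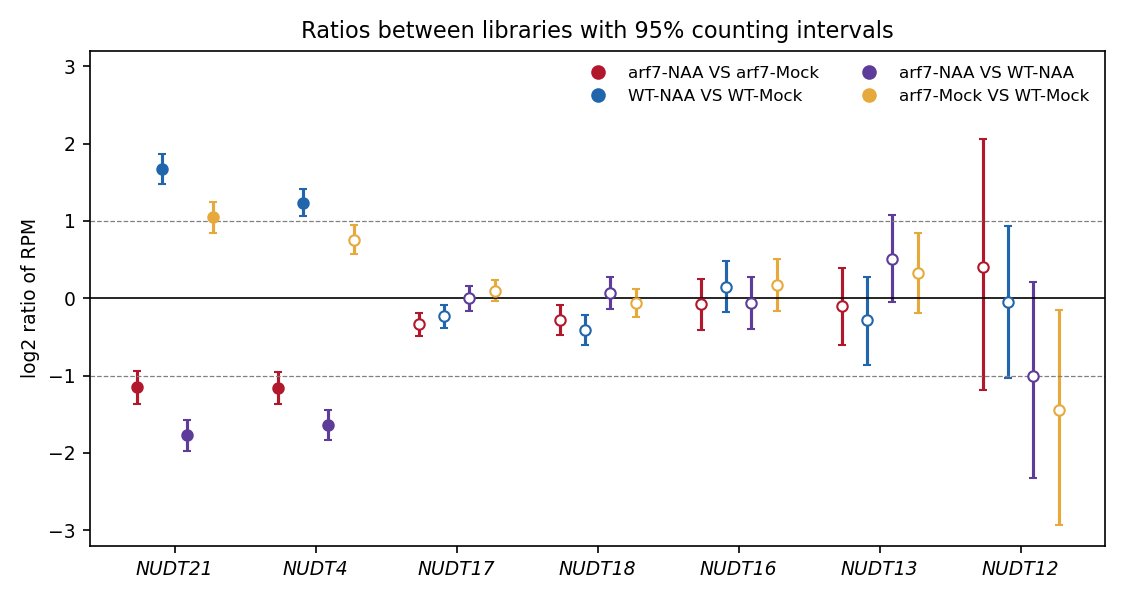
Log2 ratio of RPM of each Nudix gene in the 4 comparisons, with 95% counting intervals, where filled points are past the thresholds and dashed lines mark log2 ratios of -1 and 1. *NUDT21* and *NUDT4* lie at -1.15 and -1.16 in *arf7*-NAA VS *arf7*-Mock and at 1.67 and 1.23 in WT-NAA VS WT-Mock, and no other gene has a filled point.

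The NAA ratios of *NUDT4* and *NUDT21* thus ran in opposite directions in the 2 genotypes. The log2 ratio in *arf7* minus that in WT was -2.39 for *NUDT4* (exact conditional interval -2.67 to -2.12) and -2.82 for *NUDT21* (-3.11 to -2.53). For *NUDT17* the difference was -0.10 (-0.31 to 0.11) and for *NUDT18* it was 0.13 (-0.15 to 0.40). The intervals of *NUDT16* (-0.23, -0.70 to 0.24), *NUDT13* (0.18, -0.59 to 0.95) and *NUDT12* (0.45, -1.46 to 2.39) also included 0, and the last is wide because of its few reads. Over all genes, 11 of 18809 (0.0585%) were called higher in WT-NAA VS WT-Mock and also lower in *arf7*-NAA VS *arf7*-Mock, and *NUDT4* and *NUDT21* were 2 of these 11. The other 9, named after their values were seen, were *ORA47*, *ERF109* and AT5G51190 of the AP2/ERF transcription factors, the ethylene synthesis gene *ACS6*, the peptide gene *RTFL12*, the EF-hand gene AT4G27280, and AT1G50750, AT3G02840 and AT4G29780.

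Between the genotypes under auxin, in *arf7*-NAA VS WT-NAA, *NUDT4* and *NUDT21* were again the 2 members past the thresholds, both lower in *arf7*-NAA. Of 19362 genes, 1.62% were called, 0.687% higher and 0.935% lower. The log2 ratio was -1.64 for *NUDT4* (-1.84 to -1.44) and -1.77 for *NUDT21* (-1.98 to -1.57), levels 3.11-fold and 3.42-fold lower in *arf7*-NAA. *NUDT17* (-0.00), *NUDT18* (0.07), *NUDT16* (-0.06) and *NUDT13* (0.51) had intervals that included 0. The interval of *NUDT12*, from 9 against 19 reads, also included 0 (-2.33 to 0.21).

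Without auxin the direction was the other one. In *arf7*-Mock VS WT-Mock, *NUDT21* was past the thresholds and higher in *arf7*-Mock, 1 of 7 members. Of 19385 genes, 1.21% were called, 0.542% higher and 0.671% lower. *NUDT21* lay just inside the fold threshold at 1.04 (0.84 to 1.25), a level 2.06-fold higher in *arf7*-Mock. *NUDT4* lay outside it at 0.76 (0.57 to 0.94), or 1.69-fold higher. *NUDT17* (0.10), *NUDT18* (-0.06), *NUDT16* (0.17) and *NUDT13* (0.33) had intervals that included 0. *NUDT12* had a log2 ratio of -1.45 (-2.93 to -0.15) from 7 against 20 reads and was not called. All 7 calls of a member in the 4 comparisons rest on counting error alone. With a biological coefficient of variation of 0.2 assumed between libraries, *NUDT21* in *arf7*-NAA VS WT-NAA was the 1 call left, and with 0.4 there was none.

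Among 13940 genes with at least 100 reads over the 4 libraries and reads in each, likeness to *NUDT4* and *NUDT21* was measured as the Euclidean distance between log2 RPKM profiles, each centred on its own mean over the 4 libraries. The 5 genes nearest to *NUDT4* were AT4G29780 (distance 0.21), the ethylene synthesis gene *ACS6* (0.23), the mitochondrial dicarboxylate carrier gene *DIC2* (0.25), the EF-hand gene AT4G27280 (0.25) and the deadenylase gene *CAF1b* (0.31). *NUDT21* ranked 6th at 0.32. The 5 genes nearest to *NUDT21* were the acyltransferase gene AT2G25150 (0.14), *DIC2* (0.20), the protein phosphatase 2C gene AT2G30020 (0.21), AT4G29780 (0.25) and AT5G17350 (0.26). *DIC2* and AT4G29780 were near both. *DIC2* had 539 reads in *arf7*-NAA, 1073 in *arf7*-Mock, 1847 in WT-NAA and 660 in WT-Mock, with a lower level in *arf7*-NAA and a higher level in WT-NAA than in the matching Mock library. AT4G29780 had 456 reads in *arf7*-NAA, 952 in *arf7*-Mock, 1650 in WT-NAA and 616 in WT-Mock. *NUDT17* ranked 6116th and *NUDT18* 9521st in likeness to *NUDT4*. These distances rest on 4 points that share the libraries' depth, and they are a description.

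**Figure D4:**
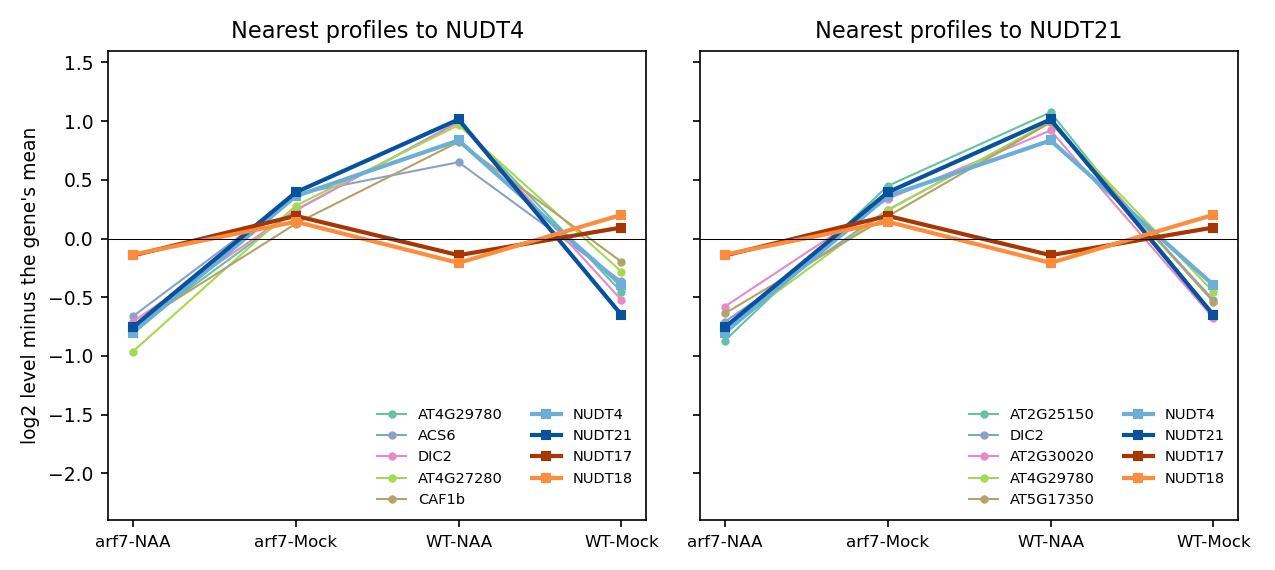
Log2 level minus the gene's mean over the 4 libraries for *NUDT4*, *NUDT21*, *NUDT17* and *NUDT18* (squares) and for the 5 genes nearest to *NUDT4* (left) or *NUDT21* (right) (circles). The nearest genes, at distances between 0.21 and 0.31 of *NUDT4* and between 0.14 and 0.26 of *NUDT21*, peak in WT-NAA with them, while *NUDT17* and *NUDT18* are lower in the NAA libraries.

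Of a list of 20 genes known to respond within minutes to touch, wounding or handling, 19 had reads, and their sum was 1181 RPM in *arf7*-NAA, 2013 in *arf7*-Mock, 2414 in WT-NAA and 1907 in WT-Mock. *NUDT4* had the same order of libraries, and *NUDT21* shared the 2 highest. Over all genes, between 0.903% and 1.62% were called in a comparison, which is the background for the counts that follow. In *arf7*-NAA VS *arf7*-Mock, 6 of 18 with a ratio were called lower and 0 higher: *WRKY40*, *XTH22*, *ORA47*, *ERF109*, *CML37* and *WRKY46*. The median was -0.90, and all 18 were below 0. In WT-NAA VS WT-Mock, *CAF1A*, *ORA47* and *ERF109* were called higher, 3 of 19, and 0 lower, with a median of 0.50 and 16 genes above 0. In *arf7*-NAA VS WT-NAA 9 of 18 were called lower and 0 higher, with a median of -1.12: *WRKY40*, *STZ*, *ERF5*, *ERF6*, *CAF1A*, *ORA47*, *ERF109*, *CML37* and *SZF1*. In *arf7*-Mock VS WT-Mock, *ORA47* and *ERF109* were called higher, 2 of 19, and 0 lower, with a median of 0.36, 13 genes above 0 and 6 below.

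*ORA47*, an AP2/ERF factor, had 18 reads in *arf7*-NAA, 63 in *arf7*-Mock, 116 in WT-NAA and 26 in WT-Mock. *WRKY33*, the most read gene here, had 1621 reads in *arf7*-NAA, 2651 in *arf7*-Mock, 2361 in WT-NAA and 3869 in WT-Mock, and thus lay below 0 in both NAA comparisons. Of 18 list genes with a ratio in both genotypes, 16 (88.9%) were above 0 in WT and below 0 in *arf7*, as were 23.6% of all 18809 genes and 3 of the 7 Nudix genes (*NUDT4*, *NUDT21* and *NUDT16*). The list was chosen with earlier results of these data known, so these shares are a description and not a test. The part of touch or handling in the levels of *NUDT4* and *NUDT21* was not tested.

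**Figure D5:**
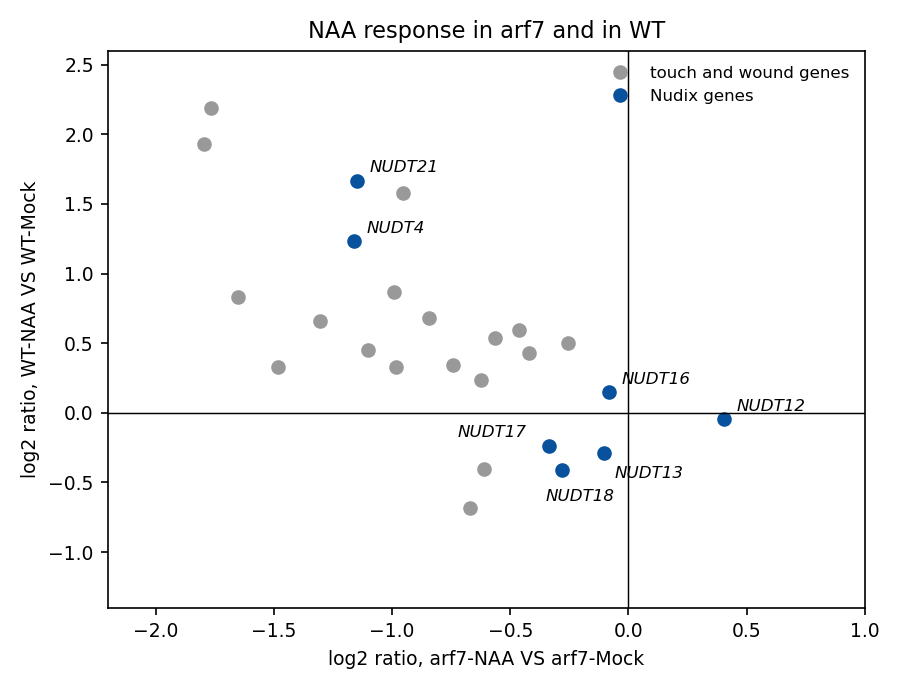
Log2 ratio of *arf7*-NAA VS *arf7*-Mock (x axis) against that of WT-NAA VS WT-Mock (y axis) for the 7 Nudix genes (blue, named) and for 18 touch and wound genes (grey), 1 point per gene. *NUDT4* and *NUDT21* lie at -1.16 and -1.15 on the x axis and at 1.23 and 1.67 on the y axis, in the quadrant that also holds 16 of the 18 touch and wound genes. The touch and wound genes were chosen with earlier results of these data known.

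The other Nudix hydrolases gave no calls. Of 21 listed, 20 had reads, and 0 of 19 with a ratio were called in any of the 4 comparisons, with medians between -0.09 and 0.07. Over all genes, between 0.903% and 1.62% were called in a comparison, so 0 of 19 lies near the background. The same range is the background for the lists below. *NUDT3*, the most read of them, had 815 reads in *arf7*-NAA, 888 in *arf7*-Mock, 840 in WT-NAA and 883 in WT-Mock. *NUDT7*, a hydrolase of NADH and ADP-ribose, had 5 reads in *arf7*-NAA, 9 in *arf7*-Mock, 9 in WT-NAA and 3 in WT-Mock, too few to pass the thresholds at a 2-fold difference. Others of the 19 share this limit. Several had 24 reads or fewer in each library, and *NUDT5*, *NUDT9*, *NUDT14*, *NUDT20* and *NUDT22* had between 29 and 86. For these genes the lack of a call says little.

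Of 12 genes of inositol phosphate synthesis, 11 or fewer had a ratio in each comparison. In *arf7*-NAA VS *arf7*-Mock 1 was called, in the other 3 comparisons 0, and the medians lay between -0.13 and 0.21. The called gene was the kinase gene *ITPK2*, with a log2 ratio of -1.27 from 27 reads in *arf7*-NAA and 67 in *arf7*-Mock, against 56 in WT-NAA and 57 in WT-Mock. *ITPK1*, which makes inositol pyrophosphates, had 724 reads in *arf7*-NAA, 629 in *arf7*-Mock, 597 in WT-NAA and 609 in WT-Mock. *VIH1* and *VIH2* had 16 reads or fewer in every library. Only reads unique to a transcript model were counted, so their full level may be higher if they have several models. *MIPS3*, a *myo*-inositol phosphate synthase gene and the most read of the 12, had 760 reads in *arf7*-NAA, 835 in *arf7*-Mock, 762 in WT-NAA and 876 in WT-Mock.

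The plant and fungal atypical dual-specificity phosphatases, which also cleave inositol pyrophosphates, gave 0 calls of 5 in each comparison. *PFA-DSP3*, the most read of the 5, had 183 reads in *arf7*-NAA, 310 in *arf7*-Mock, 165 in WT-NAA and 321 in WT-Mock, with NAA log2 ratios of -0.72 in *arf7* and -0.93 in WT. Its level was thus lower with NAA in both genotypes but short of the thresholds.

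Among 7 sensors and partners, *SPX1*, an inhibitor of PHR1, was called lower in WT-NAA VS WT-Mock and higher in *arf7*-NAA VS WT-NAA, and no other call was made. It had 167 reads in *arf7*-NAA, 253 in *arf7*-Mock, 82 in WT-NAA and 302 in WT-Mock. Its log2 ratio was -1.85 in WT-NAA VS WT-Mock and -0.56 in *arf7*-NAA VS *arf7*-Mock. Its level was 21.9 RPKM in *arf7*-NAA and 10.2 RPKM in WT-NAA. *SPX1* was therefore lowest in the library where *NUDT4* and *NUDT21* were highest. The *arf7* libraries did not show such an inverse order. There *SPX1*, like *NUDT4* and *NUDT21*, was higher in the Mock library, at 32.2 RPKM against 21.9 with NAA. *PHR1* had between 499 and 557 reads in each library, and *PHO1*, the phosphate exporter gene and the most read of the list, between 3196 and 4528. Of 12 genes induced by phosphate starvation, 11 had reads and 10 a ratio, with medians between -0.18 and 0.21. The phosphatase gene *PS2* was called higher in *arf7*-Mock VS WT-Mock (1.25, 68 against 30 reads), and 0 were called in the other comparisons. *PHT1;1*, a phosphate transporter gene and the most read among them, had between 2031 and 2593 reads.

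Of 14 auxin-inducible genes, 13 had reads. In *arf7*-NAA VS *arf7*-Mock 1 was called higher and 0 lower (median -0.06), and in WT-NAA VS WT-Mock likewise 1 and 0 (median 0.44). Not all of them rose with NAA. In WT-NAA VS WT-Mock 9 of the 13 lay above 0 and 4 below, and in *arf7*-NAA VS *arf7*-Mock 5 lay above 0 and 7 below. Between *arf7* and WT, 1 was called higher and 3 lower with NAA (median -0.41), and 1 higher and 2 lower without it (median -0.04). *GH3.3*, an auxin-conjugating enzyme gene, had 1622 reads in *arf7*-NAA, 697 in *arf7*-Mock, 171 in WT-NAA and 94 in WT-Mock, and was called higher in both genotype comparisons and with NAA in *arf7*. *LBD29*, a lateral root regulator gene, had 7 reads in *arf7*-NAA, 4 in *arf7*-Mock, 78 in WT-NAA and 30 in WT-Mock, and was called higher in WT-NAA VS WT-Mock and lower in both genotype comparisons. *GH3.5* was called lower in both genotype comparisons (log2 ratios -2.37 with NAA and -1.73 without) and *LBD18* in *arf7*-NAA VS WT-NAA (-1.73). *LAX3*, an auxin influx carrier gene and the most read of the 13, had 784 reads in *arf7*-NAA, 872 in *arf7*-Mock, 1096 in WT-NAA and 814 in WT-Mock. Unlike *NUDT4* and *NUDT21*, none of these 4 called genes had a log2 ratio past -1 in *arf7*-NAA VS *arf7*-Mock. Among the genes not called, *IAA5* had a ratio of -2.54 there, from 1 against 6 reads, with an interval that included 0.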

How the data were processed

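Root RNA was sequenced in 4 libraries, 1 for each of *arf7*-NAA, *arf7*-Mock, WT-NAA and WT-Mock, grouped by their titles. For each transcript model the authors deposited a count of uniquely assigned reads, its RPKM and the percent of its length covered. The aligner and genome build are not given in the sources used here. The authors' 4 comparison tables, with log2 ratios, p-values and false discovery rates, were not used, nor were their 16 per-sample columns. Reads and RPKM were summed over the models of a gene. Reads shared by several models of a gene were not counted, so a low count of such a gene may be partial. Depth was 7.03 to 7.57 M reads per library (M, 1000000), and every interval covers counting error only.

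Ratios are of RPM (reads per 1000000 reads of the library), with 0 reads set to 3, and genes with at most 3 reads in both libraries have no ratio. Calls used an exact two-sided binomial test (P under 0.0001, at least 2-fold), the thresholds the study states. Python 3.11.15, NumPy 2.4.6, pandas 2.3.3, SciPy 1.17.1 and Biopython 1.88 were used. Tested on simulated data, the call recovered 200 of 200 genes changed by 4-fold among 23425 in each of the 4 comparisons, with 1 false call in WT-NAA VS WT-Mock and 0 in the others, and the intervals covered the true ratio in 94% to 97.5% of the changed genes. The simulated reads carried counting error only, and the changed genes were drawn from those above a minimum of expected reads. The outcome therefore says nothing of variation between libraries beyond counting error. Smaller changes, such as those of the members, were not simulated. The members, the lists (other Nudix, inositol phosphate synthesis, phosphatases, sensors, phosphate starvation, touch and wound, auxin, root, leaf and seed) and the tests were chosen with earlier results of these data known. Named are all members, the called genes and the most read gene of each list, and the 5 genes nearest in profile to *NUDT4* and to *NUDT21*. *NUDT7*, *ITPK1*, *VIH1*, *VIH2* and *PHR1* were named for their roles, and *NRT2.1* and *WOX5* for their few reads. The leaf and seed markers are given by their sums, with the seed storage protein genes named besides. Alternatives were TMM scaling and exact tests that assume a biological coefficient of variation (edgeR 4.0.16), DESeq2 1.42.0 size factors (R 4.3.3), a minimum of 20 reads, a Benjamini-Hochberg adjusted p under 0.001, a pseudocount of 1 RPKM and the most read model of each gene. Of 27121 models with coordinates in the deposited tables, 27110 overlapped, on the same strand, the gene that carries their identifier in TAIR10.1, so that build was used for sequences. Protein identity came from global alignments with BLOSUM62.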

Additional observations from a re-analysis of the deposited data

Results flagged for a closer look

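The NAA ratio of *NUDT4* was below 0 in *arf7* and above 0 in WT, and the log2 ratio in *arf7* minus that in WT was -2.39. The same held for *NUDT21*, with a difference of -2.82. Both are listed because the ratios of the 2 genotypes ran in opposite directions, with both intervals clear of 0. A ratio above 0 in WT and below 0 in *arf7*, of any size, was found in 4435 of 18809 genes (23.6%), in 16 of 18 touch and wound genes and in *NUDT16*. The touch and wound list was chosen with earlier results of these data known. With 1 library per condition the difference between the conditions was not tested, and its intervals cover counting error only.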

How the results depend on the processing

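Counting error is the only error the calls include. With a biological coefficient of variation of 0.2 assumed between libraries in edgeR's exact test, the genes called were 46 in *arf7*-NAA VS *arf7*-Mock, 27 in WT-NAA VS WT-Mock, 96 in *arf7*-NAA VS WT-NAA and 45 in *arf7*-Mock VS WT-Mock, against 175, 244, 314 and 235 as reported. The members called were then 0, 0, 1 (*NUDT21*) and 0 in the same order. With a coefficient of 0.4 the genes called were 8, 2, 17 and 1, and the members called were 0, 0, 0 and 0. TMM and DESeq2 scaling, a minimum of 20 reads, the Benjamini-Hochberg adjustment and the most read model left the number of members called at 2, 2, 2 and 1. The largest shift of a member's log2 ratio was 0.02 under either scaling and 0.56, for a ratio of *NUDT12*, with a pseudocount of 1 RPKM. A minimum of 20 reads moved 4 of 28 list medians by more than 0.1. They became -0.15 and -0.04 for the other Nudix genes in WT-NAA VS WT-Mock and *arf7*-Mock VS WT-Mock, -0.27 for the sensors in *arf7*-NAA VS *arf7*-Mock and 0.19 for phosphate starvation in WT-NAA VS WT-Mock. No paired analysis was possible because the labels carry no replicate numbers and each group has 1 library, so no replicate number recurs across groups to serve as a block. At this depth the reads of *NUDT12* and of *NUDT13* could not pass the thresholds at a 2-fold difference, so their lack of calls says little.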
